A study of Brachypodium distachyon with 24 samples.

Results

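The leaf transcriptomes of F1 hybrids between the Brachypodium distachyon accessions Bd3-1 and Bd21 were compared with those of both inbred parents under control watering, so that every gene could be placed by where the F1 stood relative to its parents. The members of this comparison were 13 of the 24 RNA-seq libraries, 5 from F1 plants, 5 from Bd3-1 and 3 from Bd21, and 22629 of the 32439 annotated genes passed the filter on low values and were tested. Brachypodium distachyon is a small annual grass used as a model for the temperate cereals, and Bd21 is the accession of the reference genome.

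The F1 seed came from emasculated Bd3-1 flowers given Bd21 pollen, so that a single direction of the cross was available and the maternal parent was always Bd3-1. Only 10 F1 seeds were obtained. All 3 genotypes carried natural alleles and no transgene. Control plants were held at 85% of field capacity during a dry-down that began on day 33 and lasted 6 days, while drought plants, used here only as a second set of libraries, were allowed to dry. The youngest fully expanded leaf was taken in the early afternoon. The F1 plants were grown in a dry-down of their own. The series' design text states that a pair of Bd3-1 control plants was harvested with them, but the labels do not say which of the 5 libraries these are, and no Bd21 control library is described in this way. Genotype and growth run therefore cannot be told apart for F1 against Bd21, and only in part for F1 against Bd3-1. Through that pair of plants, Bd3-1 against Bd21 is mixed with growth run in part as well.

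In an F1, each gene is present as 1 copy of each parental allele in a shared cellular environment. Where the difference between inbred parents lies in the gene's own regulatory sequence, the standard expectation is that each allele keeps its output and that the F1 lies at the arithmetic mean of its parents, which is called additive inheritance. An F1 at the level of 1 parent is said to show dominance of that parent, and an F1 outside the parental range is called transgressive. The scale matters for these names, since the arithmetic mean of a high and a low parent is close to the high parent on a log scale.

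The control libraries held from 8236476 (Bd21 replicate 1) to 38713326 (F1 replicate 1) estimated fragments assigned to genes, with a median of 21489864. The 10 most abundant genes took 8.47% to 16.3% of a library, and the highest share was that of F1 replicate 1. The leaf identity was checked with Bradi4g31257, which encodes a chlorophyll a-b binding protein of the photosynthetic antenna. It had a median normalized count of 2639 in the F1 (range 2178 to 5079), 2254 in Bd3-1 (1346 to 3201) and 2400 in Bd21 (2163 to 2837). Normalized counts are counts divided by the library's effective size and rescaled to the mean library, and they compare libraries within a gene but not genes with each other. The libraries are whole leaf tissue, so that fewer cells of a type and less RNA per cell cannot be told apart. No 2 replicates agreed within sampling noise. The labels number the replicates and do not describe separate cultures or blocks, so that p-values measure the spread between these samples.

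Few genes distinguished the F1 from either parent in the edgeR quasi-likelihood test at a Benjamini-Hochberg adjusted p below 0.05. Against Bd3-1, 360 genes (1.59%) differed, of which 284 (1.26%) were higher and 76 (0.336%) lower in the F1. The lower count was 122 to 212 without Bd3-1 replicate 1, Bd3-1 replicate 4 or F1 replicate 4, and 29 to 50 without Bd3-1 replicate 2, 3 or 5 or F1 replicate 1, 3 or 5. Against Bd21, 212 genes (0.937%) differed, 148 (0.654%) higher and 64 (0.283%) lower in the F1. The inbred parents differed from each other at 569 genes (2.51%), with 189 (0.835%) higher and 380 (1.68%) lower in Bd3-1 than in Bd21. Over all tested genes the median log2 difference was 0.00 for F1 over Bd3-1, 0.05 for F1 over Bd21 and 0.07 for Bd3-1 over Bd21. The same F1 libraries enter both F1 comparisons and the same parental libraries enter the parental one, so the counts are not independent of each other. The count against Bd21 was 86 to 117 without any 1 of the Bd21 libraries or without F1 replicate 1, 3 or 5, and 397 without F1 replicate 2. At an unadjusted edgeR p below 0.05 the order was reversed, with 3791 genes against Bd21 and 2809 against Bd3-1. DESeq2 reversed it as well, with 956 and 738. Bd21 also had fewer libraries, so these counts do not show which parent the F1 was nearer.

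Each gene was then classed from these 3 tests. The F1 was above both parents at 0 genes (0%) and below both at 9 (0.0398%). It was additive, meaning between parents that differed and different from each, at 25 (0.11%). It was like Bd21, meaning that the parents differed and the F1 differed from Bd3-1 alone, at 243 (1.07%), and like Bd3-1 by the same definition at 99 (0.437%). At 202 genes (0.893%) the parents differed while the F1 differed from neither, and at 162 (0.716%) the F1 differed from 1 parent while the parents did not differ. The remaining 21889 genes (96.7%) showed no difference in any test.

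**Figure D1:**
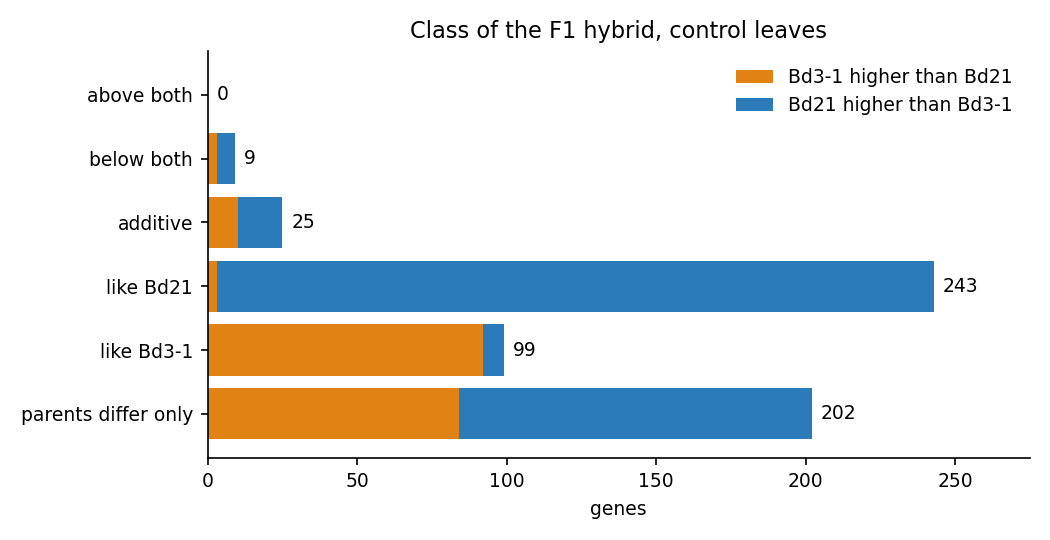
Number of genes (x axis) in each class of the F1 under control watering (rows), with the bar divided by which parent had the higher estimate. The bar of genes like Bd21 (243) is made up almost wholly of genes higher in Bd21, that of genes like Bd3-1 (99) mostly of genes higher in Bd3-1, and 0 genes are above both parents.

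At the genes like 1 parent, the F1 almost always took the side of the parent with more transcript. Of these 342 genes, 332 (97.1%) were like the higher parent and 10 like the lower. Where Bd3-1 was the higher parent (189 genes), 92 were like Bd3-1, 3 like Bd21 and 10 additive, and the F1 differed from neither at 84. Where Bd21 was the higher parent (380 genes), 240 were like Bd21, 7 like Bd3-1 and 15 additive, and the F1 differed from neither at 118. These tests were made on a log scale, on which a value at the arithmetic mid-parent lies near the higher parent.

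"Like Bd21" did not mean equal to Bd21. Among the 243 genes of that class, the F1 estimate was lower than Bd21 in 216, the median log2 ratio of F1 over Bd21 was -0.71 (quartiles -1.11 to -0.27), and the median 95% interval extended 1.04 to either side. For 199 of them the interval reached below -1, a 2-fold lower level in the F1, and 70 had an unadjusted p below 0.05. Among the 99 genes like Bd3-1, the F1 estimate was lower than Bd3-1 in 76, with a median log2 ratio of -0.38 (quartiles -0.83 to -0.04) and a median interval extending 0.73 to either side. In that class 59 intervals reached below -1 and 22 genes had an unadjusted p below 0.05.

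On the linear scale the F1 lay close to the arithmetic mid-parent. A position was computed for each of the 569 genes that differed between the parents, with 0 at the lower parental mean and 1 at the higher, so that an exactly additive gene has 0.5. The F1 mean lay between the parental means at 514 genes, above the higher at 49 and below the lower at 6. The median position was 0.502 (quartiles 0.363 to 0.695). It was 0.584 where Bd3-1 was the higher parent and 0.473 where Bd21 was. The median position was 0.336 in genes classed as additive, 0.563 in those like Bd21, 0.663 in those like Bd3-1 and 0.411 where only the parents differed. These medians differ partly by construction, since the class was set by the same libraries, and they are given as a description.

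**Figure D2:**
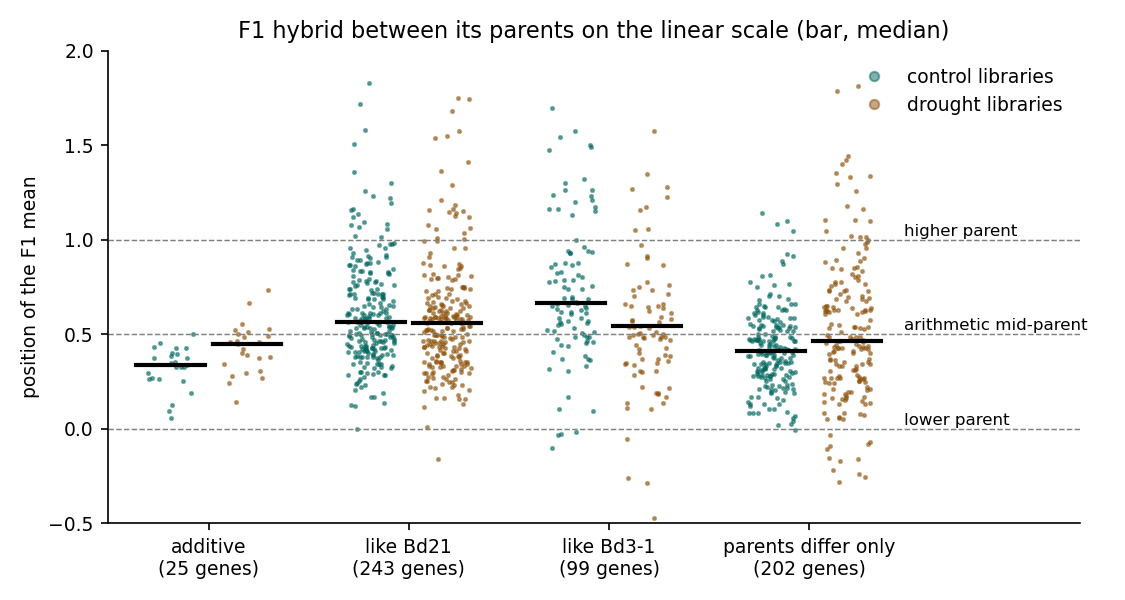
Position of the F1 mean between its parents on the linear scale (y axis) by class, each point 1 gene that differed between the inbred parents in control libraries and each bar a median, with lines at the lower parent (0), the arithmetic mid-parent (0.5) and the higher parent (1). The medians of both sets of libraries lie around the arithmetic mid-parent, and 5 genes in control and 33 in drought libraries lie beyond the range drawn.

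The drought libraries, whose levels did not set the control classes though they shared the fit's filter and estimate of spread, gave a median position of 0.516 over the 562 genes in which the parental means had the same order. By control class, the medians in drought libraries were 0.449 for additive genes, 0.557 for genes like Bd21, 0.545 for genes like Bd3-1 and 0.465 where only the parents differed. The spread between the class medians was narrower than in the control libraries that set the classes.

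The F1 was compared with 2 kinds of mid-parent. Against the mean of the parental log2 levels, 288 genes (1.27%) differed, 228 (1.01%) higher and 60 (0.265%) lower in the F1. Of those 228, 103 had 1 parent at 0 in every control library, and in 54 the F1 mean lay below the arithmetic mid-parent. Keeping only called genes whose F1 mean was on the same side of the arithmetic mid-parent left 234, of which 174 were higher and 60 lower in the F1. With the arithmetic mid-parent and a Wald test in place of the edgeR F-test, an alternative added after the data had been seen, 6 genes differed, 0 higher and 6 lower in the F1, while 3460 had an unadjusted p below 0.05. Among the 342 genes like 1 parent, 222 were nearer the arithmetic mid-parent than the higher parent, and 288 had an unadjusted p of at least 0.05 against the arithmetic mid-parent.

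Genes with no count in any control library of 1 parent showed the same position. There were 185 such genes among the 569, 49 expressed in Bd3-1 and 136 expressed in Bd21. The median F1 level was 50.0% of the expressing parent. The class reached depended on how far below that parent the F1 estimate fell, and such genes made up 15 of the 25 additive genes, 113 of the 243 like Bd21, 28 of the 99 like Bd3-1 and 29 of the 202 at which the F1 differed from neither.

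Individual genes show these patterns library by library. A fold over a parent at 0 is given as a lower bound, computed against 3 counts over the whole group. The genes that follow were taken by a fixed rule. It kept genes with no overlap between the libraries of the genotypes that the class sets apart, then ranked them by size of change. Their lack of overlap between those genotypes was thus set by the rule and is not a result. No gene name or function was matched to their identifiers.

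Among genes like Bd21, Bradi5g17127 had normalized counts of 6091, 2138, 3925, 3151 and 4979 in the F1, 0 in all 5 Bd3-1 libraries, and 3899, 5375 and 4660 in Bd21. The F1 and Bd21 libraries overlapped and Bd3-1 stood apart from both. The F1 was at least 6382-fold higher than Bd3-1 (edgeR adjusted p = 3.98e-11), while the log2 ratio of F1 over Bd21 was -0.20 (95% interval -0.85 to 0.46). Bradi2g01450 had 3097, 2315, 3911, 3554 and 2913 in the F1, 0 in all 5 Bd3-1 libraries, and 5519, 2974 and 2976 in Bd21. It was at least 4968-fold higher in the F1 than in Bd3-1 (adjusted p = 3.74e-12), and its log2 ratio of F1 over Bd21 was -0.27 (95% interval -0.82 to 0.27). The F1 mean was 87.3% of Bd21 for Bradi5g17127 and 82.6% for Bradi2g01450, both above the median of genes expressed by 1 parent alone.

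Among genes like Bd3-1, Bradi1g16151 had 869, 498, 756, 728 and 800 in the F1, 1903, 1134, 1147, 1774 and 905 in Bd3-1, and 0 in all 3 Bd21 libraries. Every F1 library was below every Bd3-1 library, and the F1 mean was 53.2% of Bd3-1. The log2 ratio of F1 over Bd3-1 was -0.91 (95% interval -1.43 to -0.39) and did not pass the threshold (edgeR adjusted p = 0.105). The two-sided exact permutation test over these 10 libraries alone gave an unadjusted p = 0.00794, the smallest it can give. Such a separation, in either direction, was seen at 3.54% of genes. Without Bd3-1 replicates 1 and 4, the highest of that parent, the log2 ratio was -0.53 (edgeR adjusted p = 0.349). The class name here does not show that the F1 was at the Bd3-1 level. Against Bd21 the F1 was at least 565-fold higher (adjusted p = 3.56e-09). Bradi5g20821 had 1072, 354, 661, 268 and 661 in the F1, 722, 1043, 807, 962 and 362 in Bd3-1, and 0 in all 3 Bd21 libraries. The F1 and Bd3-1 libraries of this gene overlapped, with the F1 at 77.4% of Bd3-1 (log2 ratio -0.37, 95% interval -1.37 to 0.63), and the F1 was at least 467-fold higher than Bd21 (adjusted p = 3.42e-05).

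The F1 mean lay below the arithmetic mid-parent at all 25 genes called additive on the log scale, which the class definition partly brings about. In the Wald test against that mid-parent 0 of the 25 passed, and 14 had an unadjusted p of at least 0.05. The additive genes that follow were picked for large changes among those whose genotypes did not overlap. Bradi4g44590 had 70.7, 32.1, 9.09, 59.8 and 15.2 in the F1, 0 in all 5 Bd3-1 libraries, and 477, 928 and 638 in Bd21. By this choice the 3 genotypes did not overlap, and the F1 mean was 5.48% of Bd21. The log2 ratio of F1 over Bd21 was -4.18 (SE 0.57, adjusted p = 0.000811), and the F1 was at least 58.8-fold higher than Bd3-1. Bradi3g34721 had 30.6, 169, 146, 239 and 30.4 in the F1, 0, 19.6, 5.15, 14.2 and 6.75 in Bd3-1, and 1948, 911 and 759 in Bd21. Again no libraries of different genotypes overlapped, and the F1 was at 10.2% of Bd21 (log2 ratio -3.30, SE 0.60, adjusted p = 0.00469) while it was above Bd3-1 by 3.72 on the log2 scale (SE 0.64, adjusted p = 0.00091). Over the 25 additive genes the median F1 level was 35.2% of the higher parent, compared with 60.4% for genes like Bd21 and 69.5% for genes like Bd3-1, all 3 being descriptions of classes set by these values.

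**Figure D3:**
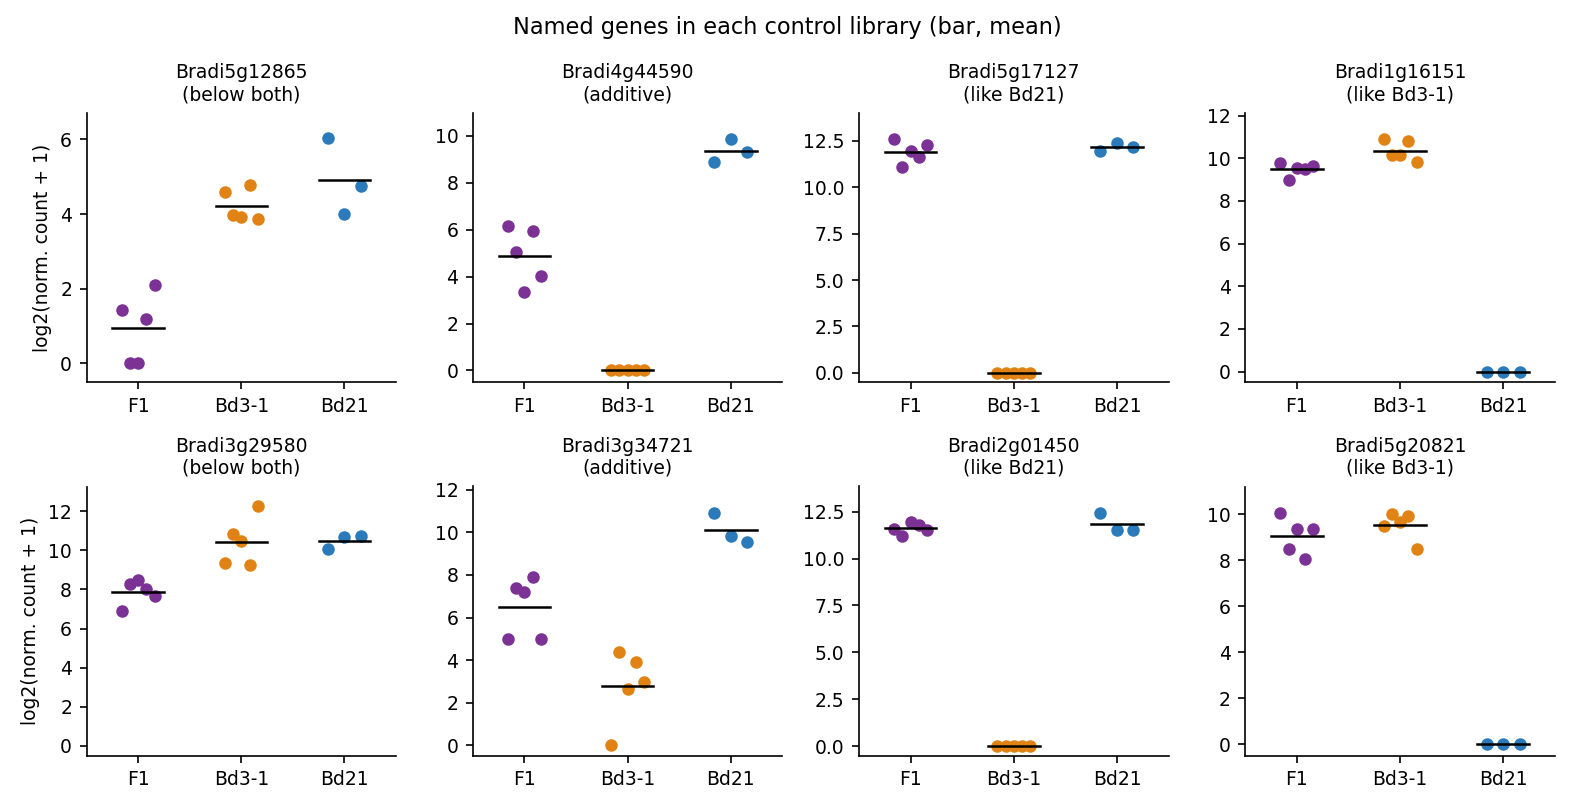
Normalized counts plus 1 on a log2 scale (y axis) of the 8 genes named by rule, each point 1 control library and each bar a mean, in the columns F1, Bd3-1 and Bd21. Genes with no count in 1 parent lie at 0 there, and the pair of genes below both parents has its lowest column in the F1.

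Transgressive expression was rare, and it was called in 1 direction only. No gene was above both parents in the edgeR test, although 397 genes had an unadjusted p below 0.05 in both F1 comparisons with the F1 higher, against 579 with the F1 lower. DESeq2 on the same counts called 21 genes above both and 67 below both. Without any test, all 5 F1 libraries were above all 8 parental libraries at 65 genes (0.287%) and below all 8 at 71 (0.314%). For the 9 genes called below both, the log2 ratios ran between -5.24 and -0.91 for F1 over Bd3-1 and between -4.63 and -1.03 for F1 over Bd21, with adjusted p between 0.000928 and 0.0446 for F1 over Bd3-1 and between 0.00698 and 0.048 for F1 over Bd21. In 6 of the 9 no F1 library overlapped a parental one. Against the arithmetic mid-parent 3 of the 9 passed the threshold. The count below both was 0 to 3 without any 1 of the Bd21 libraries, Bd3-1 replicate 2 or 3 or F1 replicate 1 or 5, and 18 to 30 without Bd3-1 replicate 1, Bd3-1 replicate 4 or F1 replicate 4. The count above both was 3 to 7 without F1 replicate 2, Bd3-1 replicate 1, Bd3-1 replicate 4 or F1 replicate 4.

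Bradi5g12865 had 1.7, 0, 0, 1.3 and 3.26 normalized counts in the F1, 23.2, 14.7, 14.1, 26.2 and 13.5 in Bd3-1, and 64.2, 15.0 and 25.8 in Bd21. It was a gene of low abundance, and each F1 library was below each parental library, as the rule required. The log2 ratio was -3.73 for F1 over Bd3-1 (SE 0.92, adjusted p = 0.0341) and -4.63 for F1 over Bd21 (SE 0.99, adjusted p = 0.0237). In the drought libraries its F1 over Bd21 ratio was 3.74 on the log2 scale (adjusted p = 0.0898), which did not pass the threshold, and its difference from Bd3-1 passed in 10 of 42 alternatives. Bradi3g29580 had 117, 312, 356, 258 and 202 in the F1, 642, 1833, 1434, 598 and 4852 in Bd3-1, and 1060, 1633 and 1671 in Bd21. The F1 libraries were again the lowest of all 13, with log2 ratios of -2.91 over Bd3-1 (SE 0.53, adjusted p = 0.00179) and -2.55 over Bd21 (SE 0.56, adjusted p = 0.0276). This gene was below both parents in drought as well, with log2 ratios of -2.49 over Bd3-1 (adjusted p = 0.0182) and -2.41 over Bd21 (adjusted p = 0.0349).

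The only gene below both parents that belonged to a list used here was Bradi3g02130, singled out after its values had been seen. It sits in the study's coexpression group for wounding and phenylpropanoid biosynthesis. Its normalized counts were 115, 15.6, 62.4, 33.8 and 23.9 in the F1, 188, 1250, 2987, 18.6 and 460 in Bd3-1, and 393, 1393 and 629 in Bd21. Bd3-1 replicate 4 lay within the F1 range while the other parental libraries were above it. The log2 ratio was -4.27 over Bd3-1 (SE 0.94, adjusted p = 0.0135) and -3.99 over Bd21 (SE 0.98, adjusted p = 0.048), and these passed in 32 and 27 of 42 alternatives.

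No other phenylpropanoid gene that the study named passed the test, and their estimates are described here as a group. The pathway converts phenylalanine into lignin precursors and flavonoids, and it is induced by wounding in many plants. The study named 11 of its enzymes and regulators. Their estimates were below both parents in 11 of 11, with median log2 ratios of -0.74 over Bd3-1 and -1.03 over Bd21, beside 0.00 and 0.05 over all genes, and 0 passed in either comparison. The summed normalized count of the list ran between 3465 and 5341 in the F1 (median 4509), between 3093 and 12085 in Bd3-1 (6754) and between 7169 and 10341 in Bd21 (8347). All F1 sums were below all Bd21 sums and overlapped those of Bd3-1. Without Bd3-1 replicate 3 the median over Bd3-1 was -0.05 and 6 of 11 estimates were lower, so that the difference from Bd3-1 rested largely on that library. In drought the medians were 0.28 over Bd3-1 and -0.21 over Bd21.

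Within the pathway, PAL, which carries out its entry step (Bradi5g15830), had 447, 436, 294, 575 and 316 normalized counts in the F1, 388, 628, 1061, 531 and 1237 in Bd3-1, and 516, 766 and 881 in Bd21. Bd3-1 replicates 1 and 4 were the lowest of that parent and lay within the F1 range. PAL had log2 ratios of -0.89 over Bd3-1 (SE 0.51) and -0.80 over Bd21 (SE 0.58). C4H, which hydroxylates cinnamate (Bradi2g31510), had -0.29 (SE 0.30) and -0.27 (SE 0.35) in the same order. A 4-coumarate:CoA ligase, which activates the product of that step (Bradi3g52350), had -0.38 (SE 0.35) and -1.11 (SE 0.39). A flavonoid 3-prime-hydroxylase (Bradi3g04750), which hydroxylates the flavonoid B ring, had -0.74 (SE 0.38) and -1.09 (SE 0.43). None of these passed the adjusted threshold. The PPO gene Bradi2g52260 had 350, 406, 291, 442 and 376 in the F1, 230, 908, 2404, 257 and 1285 in Bd3-1, and 729, 1899 and 1423 in Bd21. Its F1 libraries were below all Bd21 libraries, above Bd3-1 replicates 1 and 4, and below the other Bd3-1 libraries, with log2 ratios of -1.44 over Bd3-1 (adjusted p = 0.183) and -1.86 over Bd21 (adjusted p = 0.0987).

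The study's larger coexpression group for wounding and phenylpropanoids, defined on libraries that may include some of these plants and so not independent evidence, had 36 tested genes. Of these, 28 had a lower estimate in the F1 than in Bd3-1 and 28 a lower one than in Bd21, with medians of -0.45 and -0.66. Over all 22629 genes tested, 11222 and 10561 had a lower estimate in the same order. A single gene, Bradi3g02130, passed in each comparison, and 1 gene differed between the parents. Of all genes, 0.336% were lower in the F1 than in Bd3-1, 0.283% were lower than in Bd21, and 2.51% differed between the parents. In the drought libraries the medians were 0.60 over Bd3-1 and -0.20 over Bd21.

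Genes of the abscisic acid and dehydration response were examined because the cross was made to study drought. Abscisic acid is the hormone that closes stomata and induces protective proteins when a plant dries. Of 16 listed genes, 1 was higher in the F1 than in Bd3-1 (1.26% of all genes were) and 0 differed between F1 and Bd21 (0.937% of all genes did), and the medians were 0.56 over Bd3-1 and 0.29 over Bd21. The gene that rose was Bradi3g50220, the ortholog of ATHB-7, which in Arabidopsis is a homeodomain-leucine zipper factor induced by abscisic acid and water deficit. It had 364, 809, 342, 343 and 349 normalized counts in the F1, 120, 166, 190, 131 and 180 in Bd3-1, and 652, 224 and 216 in Bd21. Every F1 library was above every Bd3-1 library, as was so for either direction at 3.54% of genes, while the F1 overlapped Bd21. The log2 ratio was 1.49 over Bd3-1 (SE 0.30, adjusted p = 0.00585) and 0.30 over Bd21 (SE 0.34, adjusted p = 0.723). The difference from Bd3-1 passed in 26 of 42 alternatives. The parents did not pass the test (log2 ratio of Bd3-1 over Bd21 -1.19, adjusted p = 0.0623). In drought this gene was above both parents, by 2.00 over Bd3-1 (adjusted p = 0.00201) and 1.53 over Bd21 (adjusted p = 0.0321).

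At Bradi3g39800, linked to stomatal movement in Arabidopsis, the F1 mean was near that of Bd3-1, while F1 replicate 2 lay within the Bd21 range. The gene had 2419, 352, 678, 926 and 1293 in the F1, 1688, 1043, 1159, 1342 and 962 in Bd3-1, and 92.4, 273 and 519 in Bd21. The parents differed (log2 ratio of Bd3-1 over Bd21 2.05, SE 0.51, adjusted p = 0.0258), while the F1 ratios were -0.13 over Bd3-1 (adjusted p = 0.955) and 1.92 over Bd21 (adjusted p = 0.0681), neither past the threshold. The wax biosynthesis gene Bradi2g23740 had 9762, 3714, 8504, 9973 and 6934 in the F1, 8142, 1540, 906, 5644 and 958 in Bd3-1, and 3183, 2111 and 1903 in Bd21. All F1 libraries were above all Bd21 libraries, a separation seen in either direction at 13.3% of genes, and Bd3-1 replicates 1 and 4 lay within the F1 range. Its log2 ratios were 1.18 over Bd3-1 (adjusted p = 0.264) and 1.70 over Bd21 (adjusted p = 0.131).

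The study also named a serine-type endopeptidase, Bradi5g18277, and a zinc transporter, Bradi1g53680, at which the parents differed and the F1 mean lay between theirs. Bradi5g18277 had 6419, 11748, 3142, 10324 and 2480 in the F1, 13578, 10137, 9578, 28387 and 6549 in Bd3-1, and 996, 2357 and 3703 in Bd21. Its log2 ratio of Bd3-1 over Bd21 was 2.53 (SE 0.59, adjusted p = 0.0137), and the F1 mean was 50.0% of Bd3-1. Bradi1g53680 had 5586, 6750, 3291, 7590 and 2675 in the F1, 7550, 6325, 6550, 12972 and 3253 in Bd3-1, and 1900, 2113 and 3420 in Bd21, with a log2 ratio of Bd3-1 over Bd21 of 1.56 (adjusted p = 0.035). The F1 overlapped both parents at each of these genes. In drought both were lower in the F1 than in Bd3-1, by -2.69 on the log2 scale for Bradi5g18277 (adjusted p = 0.00403) and -1.93 for Bradi1g53680 (adjusted p = 0.00454).

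The remaining lists, also taken from the study and so not independent of it, held few or no called genes. The 6 circadian clock genes had medians of 0.12 over Bd3-1 and 0.15 over Bd21 with 0 called, and the 26 genes of the circadian coexpression group had -0.32 and -0.27 with 0 called. In the cell wall group of 30 genes, 30 of 30 had a lower estimate in Bd3-1 than in Bd21 (median -1.35, with 3 called, beside 1.68% of all genes), and the F1 medians were 0.78 over Bd3-1 and -0.56 over Bd21 with 0 called in either. In the chlorophyll and pigment group of 30 genes, the medians were -0.89 for F1 over Bd3-1, 0.08 for F1 over Bd21 and 0.68 for Bd3-1 over Bd21, and 23 had a lower estimate in the F1 than in Bd3-1 although the 1 gene called was higher in the F1. Without Bd3-1 replicates 1 and 4 that group had 5 genes lower and 1 higher in the F1 than in Bd3-1, beside 1.96% and 2.43% of all genes. A photosynthesis list of 14 genes had medians of 0.48 over Bd3-1 and 0.52 over Bd21, with positive estimates in 13 and 12 of 14 and 0 called. In drought those medians were -0.35 and -0.78. A smaller photosynthesis group of 3 genes, with small subunits of the carbon-fixing enzyme Rubisco among them, had medians of 1.32 over Bd3-1 and 1.50 over Bd21 with 0 called, and its summed normalized count ran between 117082 and 1269820 in the F1, between 73429 and 369479 in Bd3-1 and between 127872 and 229927 in Bd21. The F1 range took in all of Bd21 and most of Bd3-1, and the highest sum was that of the F1 library in which few genes took the largest share of counts. The drought coexpression group of 13 genes had medians of 0.70 over Bd3-1 and 0.60 over Bd21 with 0 called in either. The 7 starch and sugar genes had medians of -0.16 over Bd3-1 and -0.03 over Bd21 with 0 called.

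The count of transgressive genes turned on 2 of the 5 Bd3-1 libraries. Replicates 1 and 4 of Bd3-1 were the closest to the F1, with a median Spearman correlation across genes of 0.949 each with the F1 libraries, compared with 0.907 to 0.927 for the other Bd3-1 libraries and 0.896 to 0.931 for Bd21. Without both, 993 genes (4.39%) differed between F1 and Bd3-1 (550 higher and 443 lower in the F1), and 425 differed between F1 and Bd21. The F1 was then above both parents at 105 genes (0.464%) and below both at 65 (0.287%). The count against Bd21 was 212 in the main fit, although no F1 or Bd21 library was left out here. Both classes also need a difference from Bd21, and all libraries share 1 estimate of spread. The part of that estimate in these counts was not tested. Leaving out any of the other 9 pairs of Bd3-1 libraries gave 173 to 333 genes between F1 and Bd3-1, 0 to 1 above both and 2 to 13 below both. A further alternative, chosen once these values were known, kept only a pair of Bd3-1 libraries. The 3 pairs that held neither replicate 1 nor 4 gave 271 to 638 genes between F1 and Bd3-1, 35 to 56 above both and 31 to 38 below both. The 7 pairs that held replicate 1 or 4 gave 129 to 243 genes, 0 above both and 0 to 4 below both. Whether these replicates are the pair harvested with the F1 plants is not given in the labels, and the part of the growth run in these counts was not tested.

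**Figure D4:**
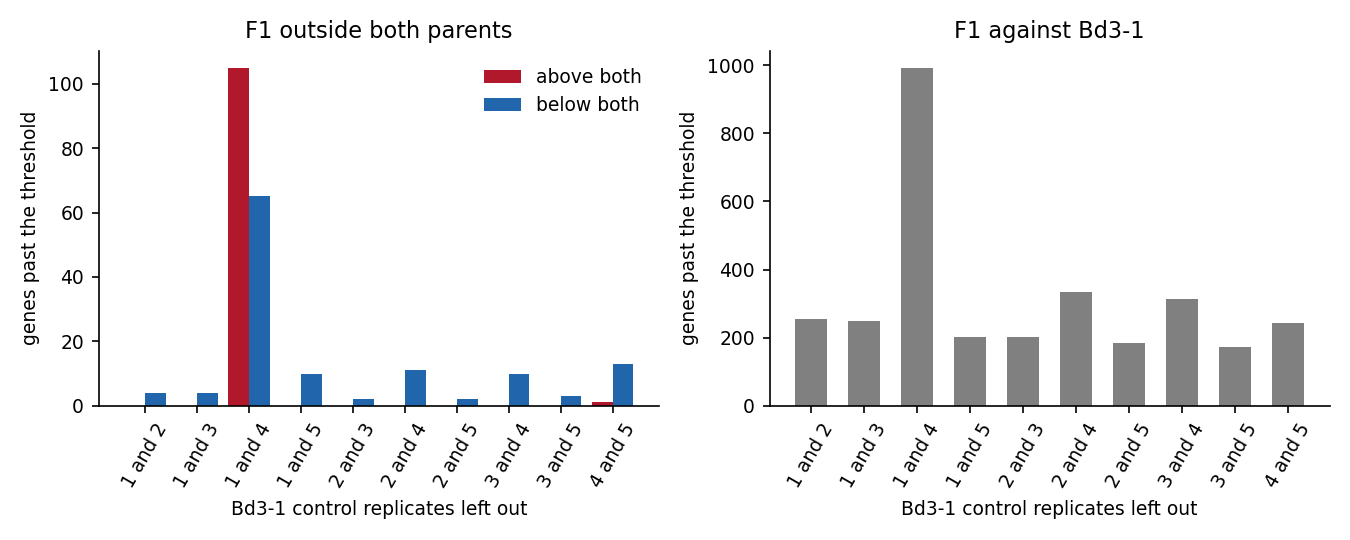
Number of genes (y axes) above both and below both parents (left) and different between F1 and Bd3-1 (right) for each of the 10 pairs of Bd3-1 control libraries left out in turn (x axes). Without replicates 1 and 4 the bars reach 105, 65 and 993 genes, and without any other pair they stay at or below 1, 13 and 333.

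The levels in the left-out libraries show how these genes behaved there. For the 105 genes above both without replicates 1 and 4, the median log2 difference of the F1 mean over a single Bd3-1 library was -0.18 for replicate 1 and 0.05 for replicate 4, whereas it was 1.30, 1.66 and 1.59 for replicates 2, 3 and 5. For the 65 genes below both the values were -0.49 and -0.13 for replicates 1 and 4, against -1.30, -1.52 and -1.40 for replicates 2, 3 and 5. These values are a description, since replicates 2, 3 and 5 chose the genes and replicates 1 and 4 were set apart after their closeness to the F1 and their effect on the counts had been seen. The Bd3-1 library nearest to the F1 mean was counted at the 22162 tested genes where 1 library was nearest, leaving out 467 ties such as genes at 0 throughout Bd3-1. It was replicate 1 at 25.2%, replicate 4 at 29.3% and each of the others at 13.9% to 15.9%. Among the 76 genes lower in the F1 it was replicate 4 at 50 (65.8%). Among the 162 untied genes higher in the F1 it was replicate 1 at 41 (25.3%), replicate 4 at 37 (22.8%) and each of the others at 24 to 34.

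The named genes differed in how far they rested on this pair. Without replicates 1 and 4, the wax biosynthesis gene Bradi2g23740 was above both parents (log2 ratio over Bd3-1 2.79, edgeR adjusted p = 3.14e-05). The PPO gene Bradi2g52260 was below both (log2 ratio over Bd3-1 -2.03, edgeR adjusted p = 0.00581). Over Bd21 their ratios were 1.69 (adjusted p = 0.0106) and -1.87 (adjusted p = 0.0206). With all libraries these had been 1.70 (adjusted p = 0.131) and -1.86 (adjusted p = 0.0987). For F1 over Bd21, then, the adjusted p moved while the ratio hardly did, and no F1 or Bd21 library was left out. Bradi3g50220, the ATHB-7 ortholog, kept its higher level over Bd3-1 (1.31, adjusted p = 0.0388). The calls at Bradi3g39800, Bradi5g18277 and Bradi1g53680 were lost. Of the 9 genes below both, 8 kept that class. Bradi5g12865 did not, with log2 ratios of -3.34 over Bd3-1 (adjusted p = 0.0622) and -4.64 over Bd21 (adjusted p = 0.0215). The classes resting on parental differences were kept at 22 of 25 additive genes, 186 of 243 like Bd21, 69 of 99 like Bd3-1 and 64 of 202 with only a parental difference.

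In the drought libraries, which are other plants of the same dry-downs, the classes were compared gene by gene. The same class was found at 12 of the 25 additive genes (48.0%, beside 0.0972% of all genes in that drought class), 157 of the 243 like Bd21 (64.6%, beside 0.809%), 45 of the 99 like Bd3-1 (45.5%, beside 0.358%) and 2 of the 9 below both (beside 0.124%). In drought 14 genes (0.0619%) were above both parents. The parental difference kept its sign at 25 of 25 additive genes, 243 of 243 like Bd21, 95 of 99 like Bd3-1 and 199 of 202 with only a parental difference. A difference in the F1 ratio between control and drought was itself tested as an interaction, and 0 genes passed for F1 over Bd3-1 or F1 over Bd21 in edgeR, with 937 and 1812 genes at an unadjusted p below 0.05.

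Reads of the F1 were also assigned to their parental allele, which shows what each copy gave inside the same cells. Alleles could be told apart at 3403 genes, taken as those where under 20% of each inbred parent's counts went to the other allele. The Bd3-1 allele gave 49.9%, 49.8%, 49.5%, 49.4% and 49.6% of the counts in F1 replicates 1 to 5, a mean of 49.7% ± 0.215 (SD, n = 5). It was below 50% in 5 of 5 libraries, and the two-sided exact sign-flip permutation test gave p = 0.0625, the smallest p that 5 libraries allow.

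The allele ratio within the F1 followed the parental difference in direction. Of the 161 genes with distinguishable alleles at which the parents differed, 156 had the higher allele count on the side of the higher parent. This count uses the sign alone, and some allele ratios were near 0. At the zinc transporter gene Bradi1g53680 the log2 ratio was 1.56 between the parents and 0.03 between the alleles. At the 46 genes like Bd21 with more transcript in Bd21, the median log2 ratio of the Bd3-1 over the Bd21 allele was -1.85 in the F1, beside a median parental ratio of -2.06. At the 27 genes like Bd3-1 with more transcript in Bd3-1, the medians were 1.15 for the alleles and 1.56 for the parents. Where only the parents differed the allele medians were 0.67 (29 genes, parents 1.03) when Bd3-1 was higher and -0.85 (47 genes, parents -1.15) when Bd21 was higher. At the 3180 distinguishable genes with no difference the medians were -0.03 for the alleles and 0.03 for the parents. Allele medians were nearer 0 than parental medians in each of the 4 groups of differing genes, which were chosen by the parental libraries.

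**Figure D5:**
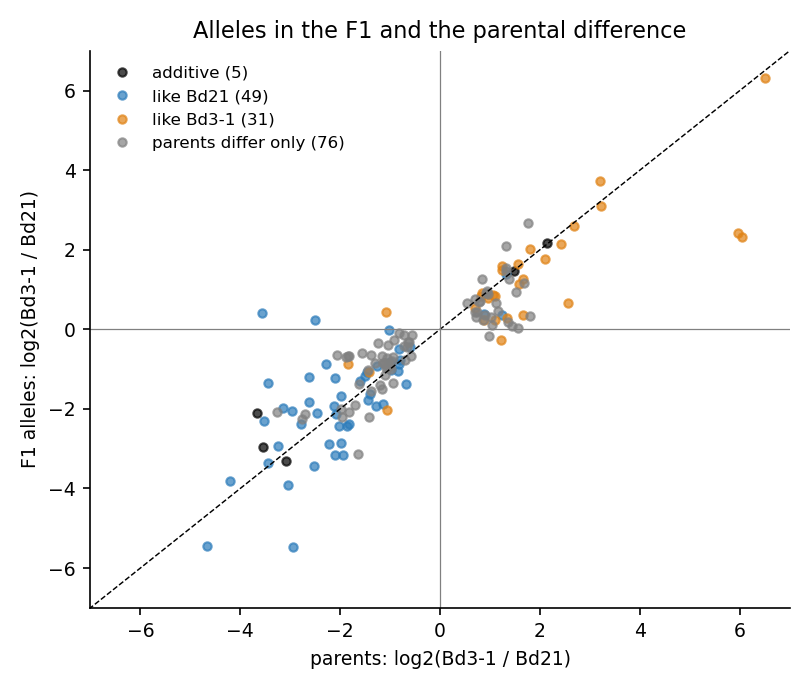
Log2 ratio of the Bd3-1 over the Bd21 allele within the F1 (y axis) against the log2 ratio of Bd3-1 over Bd21 between the inbred parents (x axis). Each point is 1 of the 161 genes with distinguishable alleles at which the parents differed, and the dashed line is equality. The allele ratio is on the parental side at 156 genes, while some points lie far from the line, such as Bradi5g04080 (parents 6.05, alleles 2.32).

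Allele counts do not cover the classes evenly. Equal counts in both allele columns, which leave nothing to tell the alleles apart, were found at 59.6% of all genes, at 112 of the 243 like Bd21 (46.1%), at 16 of the 99 like Bd3-1 (16.2%) and at 8 of the 9 below both. Reads were aligned to a diploid transcriptome made from the Bd21 reference and the Bd3-1 variants called against it. The part of the reference in the unequal numbers of genes like Bd21 and like Bd3-1 was not tested. Nor was its part in the genes with no count in 1 parent.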

How the data were processed

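RNA of the youngest fully expanded leaf was sequenced in 24 libraries. Per the labels and the study's methods, the authors trimmed the reads (Trimmomatic 0.38, cutadapt 3.7), called Bd3-1 variants against the Bd21 reference (GATK 4.2.5.0), built a diploid transcriptome, aligned to it with Bowtie 1.2.2 and let emase divide reads between genes and alleles, so that counts of near-identical genes are uncertain. The deposited values are estimated counts per gene and allele, not normalized, and need not be whole. The 2 allele columns of a library were summed and rounded to whole counts. Totals were whole within 0.001 at 90.4% of values. A gene was tested where over 10 libraries had any count for it. All 24 libraries entered 1 fit with a coefficient for each of the 6 groups (edgeR 4.0.16 in R 4.3.3, TMM factors, quasi-likelihood F-test, Benjamini-Hochberg adjustment over 22629 genes). Standard errors are the log2 ratio divided by the square root of F. The 95% intervals multiply them by a normal quantile, so they can be narrower than the F-test implies. At Bradi3g04750, F1 over Bd3-1, the interval was -1.48 to -0.002 while the unadjusted edgeR p was 0.0612. The arithmetic mid-parent was tested with a delta-method Wald test on the fitted means. Scripts were tested on simulated data.

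Control totals ran between 8236476 and 38713326, and intervals cover counting error only where they rest on counts of a library. The genes named by rule were, in each class, the 2 with the largest minimum change among those averaging 10 or more normalized counts over the control libraries and no overlap between the genotypes the class sets apart, plus the genes the study names in its text. The rule's abundant genes below both parents are given as ranges only, because no identifier matched the 31335 entries of the gene table at hand. Members and lists were chosen with earlier results of these data known. Other normalizations, filters, thresholds, DESeq2 1.42.0, the control libraries alone, a replicate block and left-out libraries were tried as alternatives.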

Additional observations from a re-analysis of the deposited data

Results flagged for a closer look

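At Bradi3g50220, the ATHB-7 ortholog, F1 control replicate 2 had 809 normalized counts while the other 4 F1 libraries had 342 to 364, which put it apart from its group. It was 1 of 29 groups of libraries looked at in this way, and chance sets apart about 1 in 20.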

How the results depend on the processing

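No named gene's difference past the threshold changed direction under an alternative, while 93 of 171 named differences short of it changed sign under at least 1. RLE factors, no filter, edgeR's own filter and a required 2-fold change kept every class and comparison count within 1.5 times. DESeq2 called 956 genes for F1 against Bd21 (581 higher, 375 lower), 738 for F1 against Bd3-1 (443 higher, 295 lower), 936 for Bd3-1 against Bd21 and 967 against the log mid-parent (552 higher, 415 lower), with 21 above both, 67 below both, 70 additive and 252 like Bd3-1. At an adjusted p below 0.01 the counts were 67, 198, 371 and 119 in the same order, with 0 below both, 9 additive and 51 like Bd3-1. The 13 control libraries alone gave 114 for F1 against Bd21, 156 against the log mid-parent and 1 below both. With the arithmetic mid-parent 234 of the 288 stayed on the same side of it, and a Wald test against it called 6. The median over genes of the Bd3-1 allele share was 49.4%. The causes were not tested.

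With the replicate block the counts were 105 for F1 against Bd21, 187 against the log mid-parent, 5 below both, 16 additive and 60 like Bd3-1. Same-numbered libraries correlated between -0.116 and 0.120 in their deviations, so the numbers were not treated as a pairing.

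Leaving out 1 library, a pair of Bd3-1 libraries or all but a pair gave 86 to 425 for F1 against Bd21, 129 to 993 for F1 against Bd3-1, 288 to 611 for Bd3-1 against Bd21, 115 to 1401 against the log mid-parent, 0 to 105 above both, 0 to 65 below both, 14 to 30 additive, 105 to 247 like Bd21 and 50 to 210 like Bd3-1. Against the log mid-parent, single libraries left out gave 151 to 183 (F1 replicates 1, 3 and 5, Bd21 replicates 1, 2 and 3) and 447 to 606 (F1 replicate 2, Bd3-1 replicates 1 and 4). Additive genes were 14 without F1 replicate 1 or 5, and genes like Bd3-1 were 50 to 62 without F1 replicate 1 or Bd21 replicate 1 or 3. The genes named by rule that had no count in 1 parent kept their calls in 42 of 42 alternatives. The parental difference passed in 20 of 42 for Bradi3g39800, 22 for Bradi1g53680 and 30 for Bradi5g18277. Bd21 had 3 libraries against 5, so that differences from Bd21 were measured with larger errors.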
